A study of Mus musculus with 14 samples.

Results

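Steroid and metabolic nuclear receptor genes, listed by symbol with earlier results of these data known, were followed in whole mouse kidney before and after ischemia: Esr1, Nr3c1, Ppara, Pparg, Rxra, Nr1h4, Esrra, Esrrg and Thrb. They are 9 of the 24411 genes in the deposited count tables, and all 9 were among the 14300 genes kept for testing. The study profiled kidneys of male C57/B6 mice aged 8 weeks by bulk RNA sequencing, with 4 libraries at day 0, 5 at day 1 and 5 at day 3 after renal ischemia/reperfusion injury (IRI), to follow the transcriptome through acute kidney injury. TRIzol was used for total RNA and the Illumina TruSeq kit for the libraries. All 3 groups share strain, sex, age and tissue, and no genotype or drug differed between them. The labels do not say whether the day 0 mice had sham surgery, nor whether each library came from a different mouse, so p-values measure the spread between these libraries.

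Nuclear receptors are transcription factors whose activity is set by small lipid-soluble ligands. Steroid receptors such as the estrogen receptor α (Esr1) and the glucocorticoid receptor (Nr3c1) act mostly as dimers of themselves. PPARα (Ppara), PPARγ (Pparg), the bile acid receptor FXR (Nr1h4) and the thyroid hormone receptor β (Thrb) pair with the retinoid X receptor α (Rxra). The estrogen-related receptors Esrra and Esrrg have no established natural hormone and drive mitochondrial genes together with the coactivator PGC-1α (Ppargc1a). Kidney tubules burn fatty acids for transport work, and PPARα and the estrogen-related receptors are known regulators of that supply.

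Depth was 12485579 to 20476979 reads on genes per library. Values below are CPM, the reads of a gene scaled to a library of fixed size with TMM factors, and fold changes come from edgeR's quasi-likelihood test with p-values adjusted over all 14300 genes. A gene was called changed at an adjusted p under 0.05. The number in a library's name has 1 digit in all day 0 libraries, in day 1 replicates 3, 4 and 5 and in day 3 replicates 4 and 5, and 3 digits in the others. What this format stands for is not given, and it may mark a technical batch. Values within the 1-digit libraries therefore stand beside the pooled ones for the receptors and, where the counts moved, the pathway lists. These values, also where called 1-digit libraries alone, compare the 1-digit groups in a fit of all 14 libraries. That fit had a term per day and number format. Segment markers fitted the tissue label: the summed CPM of 10 proximal tubule markers was 19824 to 21821 at day 0, with none at 0.

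At day 1, 5 of the 9 receptors fell and 0 rose by edgeR, and DESeq2 called these and Esrra, 6 lower and 0 higher. Esr1 fell 7.03-fold, Thrb 3.89-fold, Esrrg 2.95-fold, Pparg 2.14-fold and Nr3c1 1.49-fold. Over all genes tested, 42.1% were called in this comparison, 18.7% as lower and 23.3% as higher. At day 3, Esr1, Pparg and Thrb were again lower than at day 0 and Ppara was 2.28-fold higher. The background for that comparison was 33.3%, with 13.8% lower and 19.5% higher. The median log2 fold change of the 9 receptors was −0.77 at day 1 and −0.67 at day 3, against 0.01 and 0.05 over all genes tested. In 6 of 9 receptors the day 1 libraries did not overlap those of day 0 (42% of all genes), and in 5 of 9 at day 3 (33.4% of all genes). Against day 1, day 3 had 2 receptors higher, Ppara and Esrrg, and 0 lower, beside 15.9% of genes called (8.52% higher and 7.39% lower), and 0 of 9 did not overlap (7.61% of genes). RNA from a whole kidney cannot tell fewer cells of a type from less RNA per cell.

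**Figure D1:**
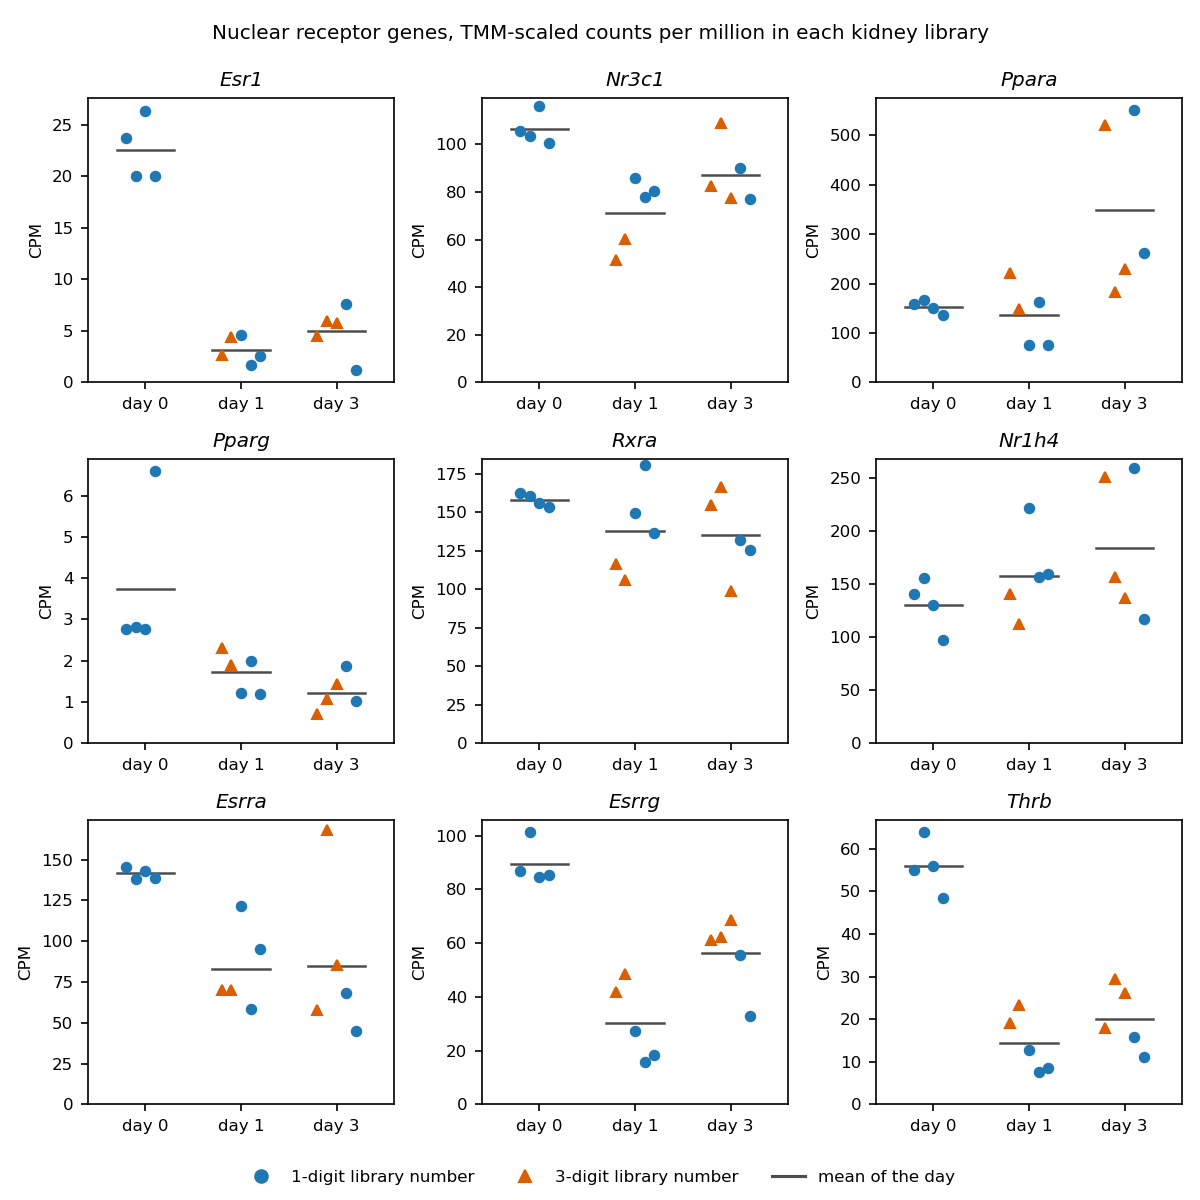
Each panel shows 1 receptor gene, with TMM-scaled CPM on a linear axis from 0 and 1 point per library (circles, 1-digit library number; triangles, 3-digit), and the bar is the mean of the day. Esr1 and Thrb at days 1 and 3 lie below every day 0 library, and Ppara at day 3 lies above every day 0 library.

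**Figure D2:**
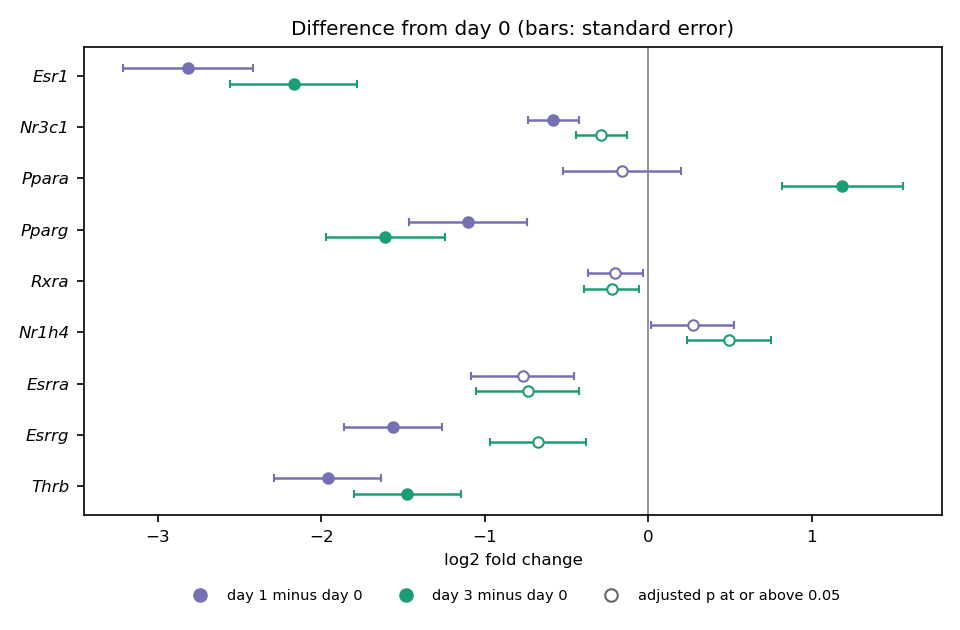
Points are log2 fold changes of day 1 and day 3 from day 0 with standard errors, and filled points have an adjusted p under 0.05. Esr1 has the most negative values, −2.81 and −2.17, and Ppara is the receptor with a filled point above 0, at 1.19 on day 3.

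Esr1 encodes the estrogen receptor α (GRCm38, chr10:4611593-5005614, plus strand). It had 23.7, 20.1, 26.3 and 20.02 CPM in day 0 replicates 1 to 4. At day 1 the 5 libraries had 2.64, 4.41, 4.63, 1.71 and 2.57 CPM. At day 3 they had 4.48, 5.91, 5.74, 7.60 and 1.25 CPM. The highest library after injury was thus far under the lowest at day 0, and the lowest rested on 17 reads. The log2 fold change was −2.81 (SE 0.40, adjusted p = 0.00017) at day 1 and −2.17 (SE 0.39, adjusted p = 0.00115) at day 3. In the 1-digit libraries alone it was −2.92 (adjusted p = 0.000203) and −2.34 (adjusted p = 0.00288). Day 3 minus day 1 was 0.65 with a 95% interval from −0.15 to 1.44.

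Thrb encodes the thyroid hormone receptor β (GRCm38, chr14:17660261-18038090, plus strand). Its day 0 libraries had 55.0, 64.0, 56.03 and 48.5 CPM. At day 1 the values were 19.1, 23.3, 12.9, 7.66 and 8.61 CPM, and at day 3 they were 18.0, 29.4, 26.2, 15.9 and 11.02 CPM. No library after injury reached the lowest day 0 library. The log2 fold change was −1.96 (SE 0.33, adjusted p = 0.000534) at day 1 and −1.47 (SE 0.33, adjusted p = 0.00407) at day 3. Within the 1-digit libraries the decreases were larger, −2.52 (adjusted p = 2.72e-06) and −2.05 (adjusted p = 5.61e-05).

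Esrrg encodes the estrogen-related receptor γ (GRCm38, chr1:187608791-188214885, plus strand). It had 86.7, 102, 84.8 and 85.2 CPM at day 0 and 41.8, 48.6, 27.3, 15.7 and 18.3 CPM at day 1. At day 3 its libraries had 61.2, 62.3, 68.6, 55.7 and 32.9 CPM. These lay between the other 2 days except that day 3 replicate 5 fell inside the range of day 1. The day 1 log2 fold change was −1.56 (SE 0.30, adjusted p = 0.00124). At day 3 it was −0.67 (SE 0.30, adjusted p = 0.0915), not called with all libraries, and −1.01 (adjusted p = 0.00246) with the 1-digit libraries alone. Day 3 minus day 1 was 0.89 (SE 0.28, adjusted p = 0.0461), a call that was lost in 11 of the 14 fits that left out 1 library.

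Esr1, Thrb and Esrrg fell at day 1 while Ppara rose at day 3, and 1 RefSeq promoter window of each is shown (build GRCm38.p6, 250 bases before to 50 after a start, plus strand). RefSeq gives 2 windows for Esr1, 2 for Thrb, 4 for Esrrg and 1 for Ppara, and the one furthest upstream was taken. The windows are chr10:4611739-4612038 for Esr1, chr14:17660710-17661009 for Thrb, chr1:187608756-187609055 for Esrrg and chr15:85735526-85735825 for Ppara. Capitals mark AGGTCA, the core that many of these receptors bind, searched on both strands.
Esr1: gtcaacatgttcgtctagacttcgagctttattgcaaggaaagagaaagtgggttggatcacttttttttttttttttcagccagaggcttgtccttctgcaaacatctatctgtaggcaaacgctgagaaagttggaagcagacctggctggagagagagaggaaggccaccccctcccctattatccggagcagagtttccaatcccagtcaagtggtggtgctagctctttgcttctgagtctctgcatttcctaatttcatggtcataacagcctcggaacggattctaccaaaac
Thrb: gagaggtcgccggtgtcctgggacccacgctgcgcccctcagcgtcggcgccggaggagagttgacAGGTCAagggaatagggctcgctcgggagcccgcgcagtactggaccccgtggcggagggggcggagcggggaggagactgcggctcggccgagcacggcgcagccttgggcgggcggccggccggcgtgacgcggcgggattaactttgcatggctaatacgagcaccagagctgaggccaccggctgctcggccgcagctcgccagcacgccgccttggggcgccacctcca
Esrrg: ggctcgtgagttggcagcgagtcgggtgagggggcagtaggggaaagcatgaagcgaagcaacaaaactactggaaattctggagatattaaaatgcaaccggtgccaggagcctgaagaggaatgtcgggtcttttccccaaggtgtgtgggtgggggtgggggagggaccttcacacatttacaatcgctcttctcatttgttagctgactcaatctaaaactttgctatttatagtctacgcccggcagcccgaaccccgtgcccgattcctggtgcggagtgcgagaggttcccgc
Ppara: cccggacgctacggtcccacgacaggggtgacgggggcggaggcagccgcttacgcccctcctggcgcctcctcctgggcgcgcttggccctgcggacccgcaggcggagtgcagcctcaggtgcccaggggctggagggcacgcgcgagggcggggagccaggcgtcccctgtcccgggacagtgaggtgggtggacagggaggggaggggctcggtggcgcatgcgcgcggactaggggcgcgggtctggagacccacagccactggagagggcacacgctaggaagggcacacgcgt

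The Thrb window holds the AGGTCA letters, starting at −184 from its start, and the other Thrb window does not. RefSeq windows were found for 8 of the 9 receptors. AGGTCA was in 5 of their 16 windows, against 16.26% of 32851 promoter windows of the same length, in Pparg, Rxra, Nr1h4 and Thrb. The glucocorticoid receptor core AGAACA was in 1 of 16 windows, against 18.97% of all. The GC box GGGCGG was in 8 of 16, against 35.66% of all. GC content differed between windows of 1 gene, with 46.33% (shown) and 59.33% for Esr1, 72.67% (shown) and 46% for Thrb, and 54% (shown) within a range of 44.67% to 61.33% for Esrrg. The Ppara window had 74.67%.

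Nr3c1 encodes the glucocorticoid receptor (GRCm38, chr18:39410545-39519421, minus strand). Day 0 libraries had 105, 103, 116 and 100.4 CPM. At day 1 they had 51.4, 60.4, 85.7, 78.0 and 80.4 CPM, all below day 0, and at day 3 they had 82.6, 109, 77.6, 90.0 and 76.98 CPM, with replicate 2 inside the day 0 range. The day 1 decrease was the smallest of the 5 called, −0.58 (SE 0.16, adjusted p = 0.00915), and was −0.39 (adjusted p = 0.0200) in the 1-digit libraries. At day 3 the difference from day 0 was −0.29 (95% interval −0.62 to 0.05, adjusted p = 0.169).

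Ppara encodes PPARα, which turns on fatty acid oxidation genes (GRCm38, chr15:85734983-85802819, plus strand). It had 159, 167, 150.1 and 137 CPM at day 0 and 221, 149, 76.2, 163 and 76.6 CPM at day 1. At day 3 it had 521, 182, 229.8, 551 and 261 CPM, every value above day 0 but spread widely. Replicates 1 and 4 were the high ones, and they differ in number format. The log2 fold change was −0.16 at day 1 (95% interval −0.93 to 0.61, adjusted p = 0.741) and 1.19 at day 3 (SE 0.37, adjusted p = 0.0242). With the 1-digit libraries alone the day 3 value was 1.41 (adjusted p = 0.0103). Leaving out day 3 replicate 1, day 3 replicate 4 or any 1 of the 4 day 0 libraries ended the day 3 call, with adjusted p up to 0.0635 and log2 fold changes of 0.97 to 1.35 over all fits without 1 library. Day 3 minus day 1 was 1.35 (SE 0.35, adjusted p = 0.0193), and its adjusted p passed 0.05 without day 3 replicate 1 or 4 (adjusted p up to 0.0514).

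Pparg encodes PPARγ, the regulator of fat cell genes (GRCm38, chr6:115360951-115490399, plus strand). Its level was low, with 14 to 109 reads per library. Day 0 replicates 1 to 3 had 2.76, 2.82 and 2.78 CPM and replicate 4 had 6.59 CPM. The day 1 libraries had 2.32, 1.91, 1.23, 2.00 and 1.21 CPM, and those of day 3 had 0.713, 1.07, 1.44, 1.88 and 1.03 CPM. Neither day overlapped day 0, with or without replicate 4. The log2 fold change was −1.10 (SE 0.36, adjusted p = 0.0244) at day 1 and −1.61 (SE 0.37, adjusted p = 0.00484) at day 3. Without day 0 replicate 4 the day 1 value was the weakest of the fits without 1 library, −0.68 (adjusted p = 0.135), and the day 1 call was also lost without day 1 replicate 3 or 5. The day 3 call held in all 14 of these fits, with log2 fold changes of −1.81 to −1.19. In the 1-digit libraries alone the values were −1.32 (adjusted p = 0.0129) and −1.35 (adjusted p = 0.0275).

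Day 0 replicate 4 also carried fat cell transcripts. The summed CPM of 5 adipocyte markers was 43.8 there and 0.115 to 1.01 in the other day 0 libraries. It was also high in both 3-digit libraries of day 1 (34.3 and 31.8 CPM) and both 1-digit libraries of day 3 (16.5 and 22.7 CPM), whose Pparg levels of 1.03 to 2.32 CPM were below day 0. In the remaining libraries after injury it was 0.563 to 5.90 CPM. Adiponectin (Adipoq) had 132 reads in it and 0, 2 and 0 in the others, and adipsin (Cfd) had 406 against 0, 6 and 9. Day 1 replicate 2 had 54 Adipoq and 235 Cfd reads. In day 1 replicate 1 and day 3 replicates 4 and 5 the sum came mostly from the lipid droplet gene Cidec (605, 240 and 279 reads), with 0 or 1 reads of Adipoq and of Cfd. Only 2 of the 5 adipocyte markers passed the filter, and 0 were called in either comparison with day 0. Their part in the Pparg result was not tested beyond the fit without that library.

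**Figure D3:**
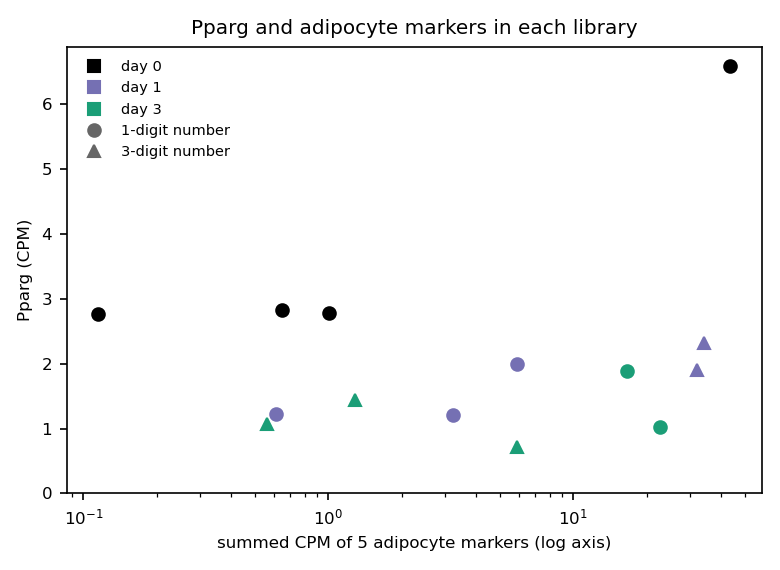
Each point is 1 library, with the summed CPM of 5 adipocyte markers on a log axis against Pparg CPM (black, day 0; purple, day 1; green, day 3; triangles, 3-digit library numbers). The day 0 library at 43.8 CPM of markers has the highest Pparg level, 6.59 CPM.

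Rxra encodes the shared dimer partner (GRCm38, chr2:27676440-27762957, plus strand). It had 158 ± 4.15 CPM (SD, n = 4) at day 0, 138 ± 29.2 (n = 5) at day 1 and 135 ± 26.4 (n = 5) at day 3, with overlapping groups. Its log2 fold changes were −0.20 (95% interval −0.56 to 0.16) and −0.22 (−0.59 to 0.14), neither called, and −0.024 and −0.30 in the 1-digit libraries, also not called. Of the receptors that pair with it, Pparg and Thrb were called lower and Ppara higher, and Nr1h4 was not called.

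Nr1h4 encodes FXR, which senses bile acids (GRCm38, chr10:89454234-89533585, minus strand). It had 131 ± 24.8 CPM at day 0, 158 ± 40.3 at day 1 and 184 ± 66.5 at day 3. Values of 251 and 259.9 CPM in day 3 replicates 1 and 4 were the highest, the same libraries that were highest for Ppara. The log2 fold changes were 0.27 (95% interval −0.27 to 0.82) and 0.49 (−0.05 to 1.04), neither called, and 0.45 and 0.53 in the 1-digit libraries, also not called.

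Esrra encodes the estrogen-related receptor α (GRCm38, chr19:6910977-6921813, minus strand, overlapping Trmt112 on the other strand). Day 0 was tight, at 145, 138, 143 and 139 CPM. The day 1 libraries had 70.3, 69.9, 122, 58.7 and 95.4 CPM, all lower, and the day 3 libraries had 58.1, 168, 85.4, 68.3 and 44.9 CPM, with replicate 2 above every day 0 library. The log2 fold changes of −0.77 (adjusted p = 0.0627) and −0.74 (adjusted p = 0.0841) were not called by edgeR, and DESeq2 called the day 1 decrease (adjusted p = 0.0456) but not that of day 3. Day 3 replicate 2 decided the second: without it the value was −1.14 (adjusted p = 0.00183). In the 1-digit libraries alone the day 3 value was −1.32 (adjusted p = 0.00856). That library had 6667 CPM of 7 injured tubule markers against 21291 to 44400 in the others and 20564 CPM of proximal tubule markers against 3684 to 14723. The part of the injury level in the Esrra value was not tested.

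Per kilobase of exon, the order at day 0 was Nr1h4 (56.8 CPM per kb), Ppara (39.9), Esrra (32.3), Rxra (29.0), Esrrg (14.4), Nr3c1 (13.8), Thrb (7.55), Esr1 (1.65) and Pparg (1.27). The ranges of Nr1h4 and Ppara overlapped, as did those of Esrrg and Nr3c1 and of Esr1 and Pparg. At day 3 Ppara stood first with 91.0 CPM per kb, its range overlapping that of Nr1h4 (80.0), and Esr1 stood last with 0.366, its range of 0.0914 to 0.556 overlapping that of Pparg (0.241 to 0.638).

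The share of receptors called different between library number formats within a day was not above that of all genes. At day 1, Esrrg and Thrb were higher in the 3-digit libraries, by log2 values of 1.15 (SE 0.23, adjusted p = 0.00269) and 1.13 (SE 0.25, adjusted p = 0.00463), and Nr3c1 was lower, by −0.54 (SE 0.16, adjusted p = 0.0171). That is 3 of 9 receptors, where 35% of all genes were called, 18.6% as higher and 16.4% as lower. In 5 of 9 the formats did not overlap at day 1 (60.7% of genes), and in 2 of 9 at day 3 (41.4% of genes). At day 3 Thrb alone of the 9 was called, higher by 0.87 (SE 0.26, adjusted p = 0.0355), where 18.5% of genes were called, 10.3% as higher and 8.22% as lower. The difference of the format effect between the days was called in 0 of 9 receptors by edgeR (17.6% of genes), 3 had an unadjusted p under 0.05, and DESeq2 called 1. Esrrg and Thrb thus had the same sign on both days, 0.53 and 0.87 at day 3.

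**Figure D4:**
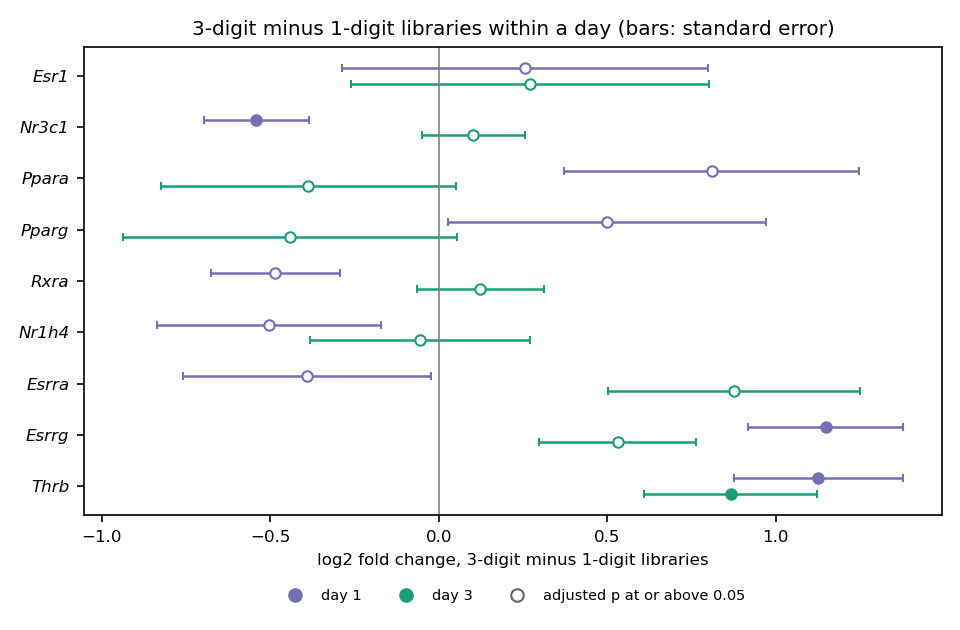
Points are log2 differences of the 3-digit minus the 1-digit libraries within day 1 (purple) and day 3 (green) with standard errors, and filled points have an adjusted p under 0.05. Thrb is filled on both days, at 1.13 and 0.87.

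Proximal tubule markers differed with format in opposite directions on the 2 days. Summed proximal tubule markers were 13937 to 21281 CPM in the 1-digit and 5262 to 6402 CPM in the 3-digit libraries of day 1, but 3684 to 8794 and 12504 to 20564 CPM at day 3. Of 10 proximal tubule markers, 9 had a format effect that differed between the days. Some markers of other segments had the same sign on both days, as Esrrg and Thrb did. Kcnj1, a potassium channel of the thick limb, was higher in the 3-digit libraries by 2.62 at day 1 (adjusted p = 0.000306) and by 1.16 at day 3 (adjusted p = 0.0387). For Avpr2, the vasopressin receptor of the collecting duct, the differences were 1.84 (adjusted p = 0.00191) and 1.00 (adjusted p = 0.0717, not called). Kcnj1 did not stand for its list: the median of 6 thick limb and distal tubule markers was −0.40 at day 1 and 0.27 at day 3. Of these, 1 was called higher and 1 lower at day 1, and 2 higher and 0 lower at day 3. The median of 6 collecting duct markers was 0.22 and 0.89, with 1 called higher on each day. The share of the receptors' format differences that goes with tubule markers was not tested. With the 1-digit libraries alone, 5 receptors fell at day 1 (58.5% of genes called, 28.9% higher and 29.6% lower), the same 5 as with all libraries. At day 3, 1 rose and 5 fell (53.7% called, 28.6% higher and 25.1% lower), Esrra and Esrrg being added to the pooled calls. From day 1 to day 3, Ppara and Esrrg rose in the 1-digit libraries (32% called, 16.5% higher and 15.5% lower), by 1.95 (adjusted p = 0.00539) and 1.12 (adjusted p = 0.00329). In the 3-digit libraries Nr3c1 alone of the 9 was called, higher by 0.68 (adjusted p = 0.0143, 13.9% called, 7.5% higher and 6.41% lower). Ppara and Esrrg had differences of 0.75 and 0.50 there, not called (adjusted p = 0.289 and 0.166). Format and day cannot be told apart at day 0, where no 3-digit library exists.

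Cell type markers also moved with the day itself, beside the 23.3% of all genes higher and 18.7% lower at day 1 and the 19.5% and 13.8% at day 3. The proximal tubule sum was 19824 to 21821 CPM at day 0, 5262 to 21281 at day 1 and 3684 to 20564 at day 3, with 2 of 10 markers lower on each day, and 7 of 10 at day 3 in the 1-digit libraries alone. Thick limb and distal tubule markers summed to 7240 to 9946 CPM at day 0, 3563 to 6260 at day 1 and 2519 to 3610 at day 3, with 4 and 5 of 6 lower. Collecting duct markers summed to 693 to 972 CPM at day 0, 378 to 717 at day 1 and 241 to 649 at day 3, with 2 and 4 of 6 lower. Injured tubule markers summed to 1174 to 1543 CPM at day 0, 8461 to 37021 at day 1 and 6667 to 44400 at day 3, with 6 of 7 higher on both days. Neutrophil markers summed to 1.33 to 2.07 CPM at day 0 and at least 19.3 CPM in every library after injury, with 5 of 5 higher. Fibroblast and pericyte markers summed to 124 to 134 CPM at day 0, 144 to 441 at day 1 and 522 to 1152 at day 3, with 2 and 5 of 6 higher, and 2 and 3 of 5 smooth muscle markers were higher. Macrophage markers had 2 of 7 higher and 1 lower on each day. Endothelial markers had 2 of 6 higher at day 1. At day 3 they had adjusted p of 0.0742 to 0.790 by edgeR with all libraries, but 6 of 6 were higher in the 1-digit libraries alone. The part of these shifts in the receptors' changes was not tested.

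Genes around the receptors were then counted by list, to be read against the shares of all genes tested, 23.3% higher and 18.7% lower at day 1 and 19.5% higher and 13.8% lower at day 3. Of 29 other nuclear receptors, 26 were tested, and 2 rose and 11 fell at day 1 and 2 rose and 7 fell at day 3. The 9 called at day 3 are a share near the 33.3% of all genes. In the 1-digit libraries alone, where 58.5% and 53.7% of all genes were called, 6 rose and 12 fell at day 1 and 6 rose and 10 fell at day 3. Hnf4a, a regulator of proximal tubule identity, had 926, 455 and 641 CPM and fell at day 1 by 1.02 on the log2 scale (adjusted p = 0.00133). Ppard, the third PPAR, fell by 0.65 at day 1 and by 1.42 at day 3. The vitamin D receptor Vdr had 340.3, 244 and 348 CPM and was not called. The 2 that rose at day 1, Nr1d1 and Nr1d2, are clock receptors named here after their values were seen, and Nr1d1 went from 2.59 to 7.74 CPM at day 0 to 29.1 to 487 CPM at day 1.

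Among 16 coactivators and corepressors, 2 rose and 6 fell at day 1 and 4 rose and 2 fell at day 3. The 8 and 6 of 16 called are near the 42.1% and 33.3% of all genes. In the 1-digit libraries alone 3 rose and 3 fell at day 3 (28.6% of all genes higher and 25.1% lower). The day 1 counts there were the same as with all libraries. Ppargc1a, which encodes PGC-1α, had 94.9, 97.2, 96.8 and 87.9 CPM at day 0 and 33.2, 28.9, 30.9, 19.3 and 28.5 CPM at day 1. Day 3 libraries had 50.2, 57.1, 52.9, 42.8 and 24.6 CPM, so no library after injury overlapped day 0. It fell by 1.74 (SE 0.21) and by 1.05 (SE 0.21) on the log2 scale. Its relative Pprc1, also a coactivator of mitochondrial genes, moved the other way, from 13.5 CPM to 45.2 at day 1 (log2 fold change 1.74, adjusted p = 2.47e-05) and 20.1 CPM at day 3 (0.57). The corepressor Ncor1 fell at day 1 by 0.74, and the coactivator Ncoa3 fell by 0.51 and by 0.41.

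Of 17 PPARα targets tested, 6 rose, 1 fell and 10 were not called at day 1, where 23.3% of all genes rose. At day 3, 11 rose and 1 fell, where 19.5% of all genes rose. The median log2 fold changes were 0.67 and 1.29. Plin2, which coats lipid droplets, rose from 23.8 to 27.2 CPM at day 0 to 754 to 4938 CPM at day 1 and 202 to 4970.2 CPM at day 3. Angptl4, a lipase inhibitor, rose by 1.80 and by 1.38. Acadm, the medium-chain acyl-CoA dehydrogenase of fatty acid oxidation, was the 1 that fell on both days, by 1.42 and by 1.59. Ehhadh, a peroxisomal oxidation enzyme, averaged 918, 951 and 2246 CPM, and its day 3 difference of 1.29 had an adjusted p of 0.0575. In the 1-digit libraries alone 5 rose and 3 fell at day 1, with a median of 0.0027 (28.9% of all genes higher and 29.6% lower), and 14 rose and 1 fell at day 3, with a median of 1.68 (28.6% higher and 25.1% lower). From day 1 to day 3, 11 rose and 1 fell in the 1-digit libraries (16.5% higher and 15.5% lower), whereas in the 3-digit libraries 4 fell and the other 13 were not called (7.5% higher and 6.41% lower).

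ERR and PGC-1α targets, which are mitochondrial genes, gave 0 higher and 3 lower of 12 at day 1 and 0 higher and 5 lower at day 3. The share lower at day 1 is near the 18.7% of all genes, and at day 3 the background was 13.8%. Within the 1-digit format 1 was higher and 3 were lower at day 1 (29.6% of all genes lower), and 8 were lower at day 3 (25.1%). Ndufs1, a subunit of respiratory complex I, fell by 0.92 and by 0.89. Atp5b of the ATP synthase fell at day 3 by 0.73 (adjusted p = 0.00616).

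Glucocorticoid receptor targets gave 4 higher and 1 lower of 12 at day 1 and 3 higher and 0 lower at day 3. The share called was near the 42.1% of all genes at day 1 and below their 33.3% at day 3. Restricted to 1-digit libraries the counts were 5 higher and 2 lower at day 1 and 5 higher and 0 lower at day 3, with medians of 0.70 and 0.72 against 0.53 and 0.30 with all libraries. Mt2, a metallothionein, rose from 10.7 to 17.4 CPM at day 0 to 667 to 2047 CPM at day 1 and 72.2 to 902 CPM at day 3. Pck1, the gluconeogenic enzyme, averaged 3425, 2260.1 and 6549 CPM, was called in neither comparison with day 0, and was higher at day 3 than at day 1 by 1.53 (adjusted p = 0.0266). Errfi1 was not called. Tsc22d3, the 1 that fell at day 1, by 0.97, is named here after its value was seen and encodes the glucocorticoid-induced leucine zipper.

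FXR, PPARγ and thyroid lists were small, so their counts say little against the 42.1% and 33.3% of all genes called. Of 5 FXR targets tested, 1 rose and 2 fell at day 1 and 1 rose and 1 fell at day 3. The bile acid importer Slc10a2 fell by 2.18 and by 1.98, the exporter Abcc2 rose at day 3 by 1.35 (adjusted p = 0.00142), and the exporter subunit Slc51a was not called. With the 1-digit libraries alone 2 rose and 2 fell at day 3. Of 6 PPARγ targets, 2 fell on each day: Scd1, the stearoyl-CoA desaturase, by 2.64 and by 3.13, and the lipase Lpl by 1.26 and by 2.22, while Cd36 was not called. With the 1-digit libraries alone 4 fell at day 1 and 2 rose and 3 fell at day 3. Of 8 thyroid hormone genes, 2 rose and 4 fell at day 1 and 1 rose and 3 fell at day 3, and 5 fell at day 3 with the 1-digit libraries alone. Malic enzyme Me1 fell by 0.83 and by 1.36. The deiodinase Dio2 had 0 to 5 reads per library at days 0 and 3 and 12 to 29 at day 1, where it was called higher.

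Steroid-metabolising enzymes gave 1 higher and 2 lower of 9 tested at day 1 and 2 higher and 4 lower at day 3, where 42.1% and 33.3% of all genes were called. In the 1-digit libraries alone 1 rose and 3 fell at day 1 (28.9% of all genes higher and 29.6% lower). The day 3 counts there were the same, but the median log2 fold change was −0.089, against −0.73 with all libraries. Cyp7b1, an oxysterol hydroxylase, had 281 to 405 CPM at day 0, 2.86 to 39.8 CPM at day 1 and 1.10 to 7.77 CPM at day 3. Its log2 fold changes were −4.51 (adjusted p = 0.000313) and −6.42 (adjusted p = 7.8e-05). Hsd17b4 rose at day 3 by 0.66 and Hsd17b11 was not called. The estrogen sulfotransferase Sult1e1, named here after its values were seen, was the 1 that rose at day 1, with 0 or 1 reads in each day 0 library and 51 to 818 at day 1.

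**Figure D5:**
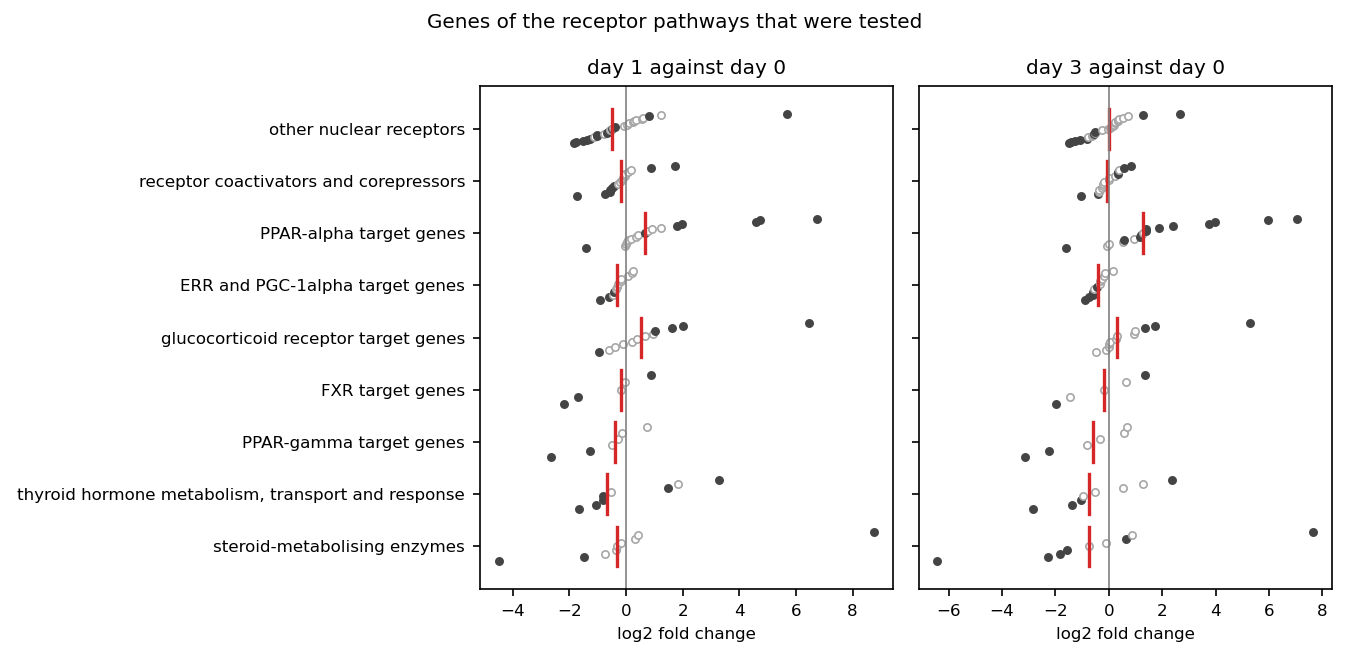
Each point is 1 gene of a pathway list, with its log2 fold change from day 0 at day 1 (left) and day 3 (right), filled where adjusted p is under 0.05, and red bars mark list medians. With all libraries PPARα targets have medians of 0.67 and 1.29, the highest of the lists plotted, but at day 1 in the 1-digit libraries alone their median of 0.0027 is below the 0.70 of glucocorticoid receptor targets.

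Genes with the most similar pattern to each receptor were found by Pearson's r of log2 CPM over the 14 libraries, given as a description since all share the day effect. Tmem135 was closest to Esrrg (0.991), Ccdc47 to Thrb (0.985), Pcmtd1 to Esr1 (0.974), C730027H18Rik to Esrra (0.971) and Abhd15 to Ppara (0.953). Txndc16 was closest to Nr3c1 (0.943), Itih2 to Pparg (0.908), Fam207a to Rxra (0.888) and Eif3a to Nr1h4 (0.833).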

How the data were processed

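The data are 14 RNA libraries of mouse kidney. The authors trimmed reads with Trimmomatic and aligned them with STAR to mm10 (versions and annotation not given in the sources used here), and deposited raw counts per gene. The column of the kit's strand held 98.5% to 98.7% of strand-assigned reads and was used. STAR's 4 rows without a gene (29.0% to 38.3% of reads) were left out. All 26 replicate pairs differed by more than sampling noise (chi-square divided by its degrees of freedom, 5.69 to 228).

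The counts were fitted with edgeR 4.0.16 in R 4.3.3 (filterByExpr by day, TMM, quasi-likelihood test over all 14 libraries, Benjamini-Hochberg), with a term per day, or per day and number format. Standard errors come from the F value. DESeq2 1.42.0 was an alternative. Scripts were tested on simulated counts. From each pathway list the text names the 2 genes of highest mean CPM and that of lowest p in each comparison with day 0. Some genes this rule picked are not reported here. The receptors, lists and rules were chosen with earlier results of these data known. Gene positions are from GENCODE M21. The columns of the other strand and the unstranded column were used as a check and an alternative.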

Additional observations from a re-analysis of the deposited data

Results flagged for a closer look

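Some libraries lay far from their day, by a test of the gap that chance passes in about 1 of 20 groups. Of 27 receptor groups 2 did, and 7 of 108 with the named genes of the lists. They were Pparg in day 0 replicate 4 (6.59 CPM) and Esrrg in day 0 replicate 2 (101.5 CPM), and among the other genes Abcc2 and Scd1 in day 0 replicate 4 (133 and 59.7 CPM), Ndufs1 in day 1 replicate 3 (319.6 CPM), Scd1 in day 3 replicate 2 (30.02 CPM) and Plin2 in day 3 replicate 5 (4970.2 CPM). Day 0 replicate 4 is the library with the highest sum of adipocyte markers.

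The change from day 0 differed between day 1 and day 3 for 9 genes by edgeR's test of day 3 against day 1. On the log2 scale Ppara differed by 1.35, Esrrg by 0.89, Ncor1 by 0.48, Ppargc1a by 0.69, Pck1 by 1.53 and Abcc2 by 1.38, all higher at day 3. Ppard (−0.77), Pprc1 (−1.17) and Dio2 (−2.75) were lower at day 3.

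Reads on the strand opposite to Esrra, which the comparisons do not use, were 29 to 37 in every day 1 library and 14 to 18 at day 0, without overlap. At day 3 they were 12 to 17. Trmt112 lies on that strand.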

How the results depend on the processing

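Esr1 and Thrb kept their calls at days 1 and 3 under every alternative run, leaving out each library included. The called receptors against day 0 ranged from 4 to 6 at day 1 and 3 to 5 at day 3 without 1 library, and the 1-digit libraries alone gave 7 at day 3 in their own fit. Day 3 against day 1 gave 2, but 1 with a log2 fold change of at least 1, 1 with no filter and 0 with only these 2 days, and 0 to 3 without 1 library. The format comparison of day 1 gave 2 to 4 without 1 library. That of day 3 gave 0 with a log2 fold change of at least 1 and 0 to 3 without 1 library. The format difference gave 1 with RLE size factors, 1 with at least 10 counts in every library, 1 with DESeq2 and 0 to 3 without 1 library. Within the 1-digit libraries, counts without 1 library were 3 to 6 (day 1), 4 to 8 (day 3) and 0 to 3 (day 3 against day 1), and within the 3-digit ones 0 to 2, and 0 with a log2 fold change of at least 1. DESeq2 added 4 calls to those of edgeR and lost 0: Esrra at day 1, Rxra lower in the 3-digit libraries of day 1 (adjusted p = 0.0281), Nr3c1 at day 3 in the 1-digit libraries (adjusted p = 0.0334) and Nr3c1 for the format difference (adjusted p = 0.0190). The cause was not tested.

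Directions turned only for log2 differences that were not called, over the alternatives run. At day 1 against day 0 they were Rxra (0.0091, 1-digit libraries in their own fit), Ppara (0.27) and Nr1h4 (−0.045, both 3-digit libraries). At day 3 against day 1, Rxra gave 0.14 with total counts, 0.029 with a format term and 0.33 in 3-digit libraries. In that comparison Esrra gave −0.064 with a format term and −0.71 in 1-digit libraries in their own fit. Exact permutation tests with a prior count of 2 or 0.5 gave −0.077 for Esrra. Esr1 gave −0.13 for the format difference with total counts. Within 1-digit libraries, day 3 against day 1, Nr3c1 gave −0.0017 with RLE and −0.00156 with DESeq2, and Pparg 0.18 with total counts. Without 1 library, sign changes ran over these ranges. Day 3 against day 1 ranged from −0.37 to 0.21 for Esrra and −0.11 to 0.091 for Rxra. The day 1 format value of Esr1 ranged from −0.16 to 0.74. Day 3 format values were −0.06 to 0.22 for Nr3c1, −0.019 to 0.33 for Rxra, −0.54 to 0.63 for Nr1h4, −0.98 to 0.25 for Ppara, −0.83 to 0.061 for Pparg and −0.52 to 2.10 for Esr1. The format difference ranged from −0.77 to 1.84 for Esr1, −0.52 to 0.027 for Thrb and −0.029 to 1.14 for Nr1h4. Within 1-digit libraries the ranges were −0.14 to 0.064 for Rxra at day 1, −0.16 to 1.02 for Nr1h4 at day 3, and, day 3 against day 1, −0.53 to 0.33 for Pparg, −0.62 to 0.52 for Nr1h4, −1.24 to 1.35 for Esr1 and −0.078 to 0.14 for Nr3c1. Total counts moved the median of all genes to 0.19 and 0.17 at day 3 (against days 0 and 1) and to 0.24 for the day 1 format, and values above are relative to TMM.

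Same-numbered libraries of different days share only a number: the correlations of their deviations ran from −0.175 to 0.261 over 13 pairs, 4 above 0.1, and 4 of 14 libraries matched their own number best. With the replicate block the called receptors were 4, 4 and 2 (day 1 and day 3 against day 0, day 3 against day 1), Pparg at day 1 was lost, and Esrra at day 3 against day 1 turned to −0.060.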
